A study of Mus musculus with 6 samples.

Results

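The AMPA receptor subunits Gria1, Gria2, Gria3 and Gria4 and the transmembrane AMPA receptor regulatory proteins (TARPs) Cacng2, Cacng3, Cacng4, Cacng5, Cacng7 and Cacng8 were followed in granule cells of mice overexpressing HuD. The members were taken by name: every probe set of the Affymetrix mouse genome array with exactly 1 gene symbol, that of a member. This gave 22 probe sets for the 10 genes, out of 45037 probe sets other than controls and 18193 genes. RNA of isolated DGCs, from what is known of the study dentate granule cells of the hippocampus, was measured on 3 arrays of transgenic and 3 arrays of control mice. By the sample descriptions each group had 2 mice, of which mouse 1 has 1 array and mouse 2 has 2. The title of the series calls the transgenic mice overexpressors of HuD, an RNA-binding protein of neurons that stabilises mRNAs. Promoter of the transgene, strain, sex and age are not given in the labels used here, and both groups have preservation entered as their treatment. The array titles of transgenic mouse 1, transgenic mouse 2 array 1 and control mouse 1 carry the tag re-LCM, which the labels do not explain. The titles also number both arrays of control mouse 2 as separate controls, so the assignment of arrays to mice rests on the descriptions.

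AMPA receptors are tetramers of GluA1 to GluA4, encoded by Gria1 to Gria4, and carry most of the fast excitatory current in the brain. GluA2 makes the channel nearly impermeable to calcium once its pore codon has been edited in the mRNA. TARPs are relatives of the calcium channel gamma subunits that bind AMPA receptors, bring them to the surface, tie them to the postsynaptic scaffold and slow their closing. The type I TARPs are encoded by Cacng2 (stargazin), Cacng3, Cacng4 and Cacng8, and the type II TARPs by Cacng5 and Cacng7. In the hippocampus Cacng8 is the TARP best known for holding AMPA receptors at synapses.

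Values are probe set intensities on the scale deposited by the authors, with each array scaled to the same trimmed mean. Intensities under 10.1, the pooled 25th percentile, have no order and were set to that floor before log2 was taken. On the 6 arrays 23.9% to 26.4% of the probe sets lay at or under the floor. All 6 granule cell markers listed (Prox1, Dsp, Tdo2, Calb1, C1ql2 and C1ql3) were above the floor on every array, with a summed intensity of 21039 to 22510 on the transgenic and 21789 to 24344 on the control arrays. Markers of other cells were also present. Those of oligodendrocytes (6 of 8 listed passed the filter on mean level) summed to 5317 to 7888 on the transgenic and 4624 to 11342 on the control arrays, with the top value on control mouse 1. Interneuron markers (7 of 7) summed to 2346 to 2487 on the transgenic and 2227 to 2767 on the control arrays, and astrocyte markers (5 of 6) to 2043 to 2904 on the transgenic and 2515 to 3959 on the control arrays. Microglia markers (5 of 6) summed to 2385 to 3007 on the transgenic and 2479 to 3636 on the control arrays. A single gene made up much of each of these sums. Over the 6 arrays Mbp read 3010 to 7661 and Gja1 1260 to 2516. Gad1 read 1618 to 1912 and Csf1r 1567 to 2365. Gad1 was the interneuron marker with a higher mean in the transgenic mice. Mog was at or under the floor on 3 of the 6 arrays. Means were lower in the transgenic mice for 6 of 6 oligodendrocyte genes (median difference -0.73 on the log2 scale) and 5 of 5 astrocyte genes (-0.39). The same held for 5 of 5 microglia (-0.33), 6 of 7 interneuron (-0.40), 3 of 4 pyramidal cell and 1 of 2 vascular genes. Cspg4, of oligodendrocyte precursors, had a higher mean, as had 50.5% of all genes tested. The mean log2 level of the oligodendrocyte list, relative to its 6-array mean, was -0.65 on transgenic mouse 1 and 0.77 on control mouse 1. On the arrays of mouse 2 it was 0.02 and -0.12 in the transgenic against 0.15 and -0.18 in the control mouse. Of these marker genes 0 passed the test between groups described next. Among the granule cell markers 4 of 6 had lower means (median -0.11). In such samples, a change in the number of cells of a type and a change in RNA per cell cannot be told apart.

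For 9 of the 10 members at least 1 probe set passed the filter on mean level. The exception was Cacng3. None of the 9 passed the test between transgenic and control mice (limma, Benjamini-Hochberg adjusted p = 0.999 for each), and 0 of 14678 genes tested did so (0%). Of these 14678, 11138 have a single gene symbol, and the others are probe sets with several symbols or none, each counted as a gene here and in every share of all genes tested. At an unadjusted p under 0.05 there were 632 genes, 4.31% of those tested, and 1 of them, Cacng8, was a member. Of the 9, 6 had a higher and 3 a lower mean in the transgenic mice, with a median difference of 0.08 on the log2 scale, while over all genes tested 50.5% had a higher mean and the median was 0.0026. The 95% interval of the difference lay within a 2-fold change in either direction for 8 of the 9 members, the exception being Cacng4. Changes smaller than 2-fold were thus not excluded by the intervals of most members.

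**Figure D1:**
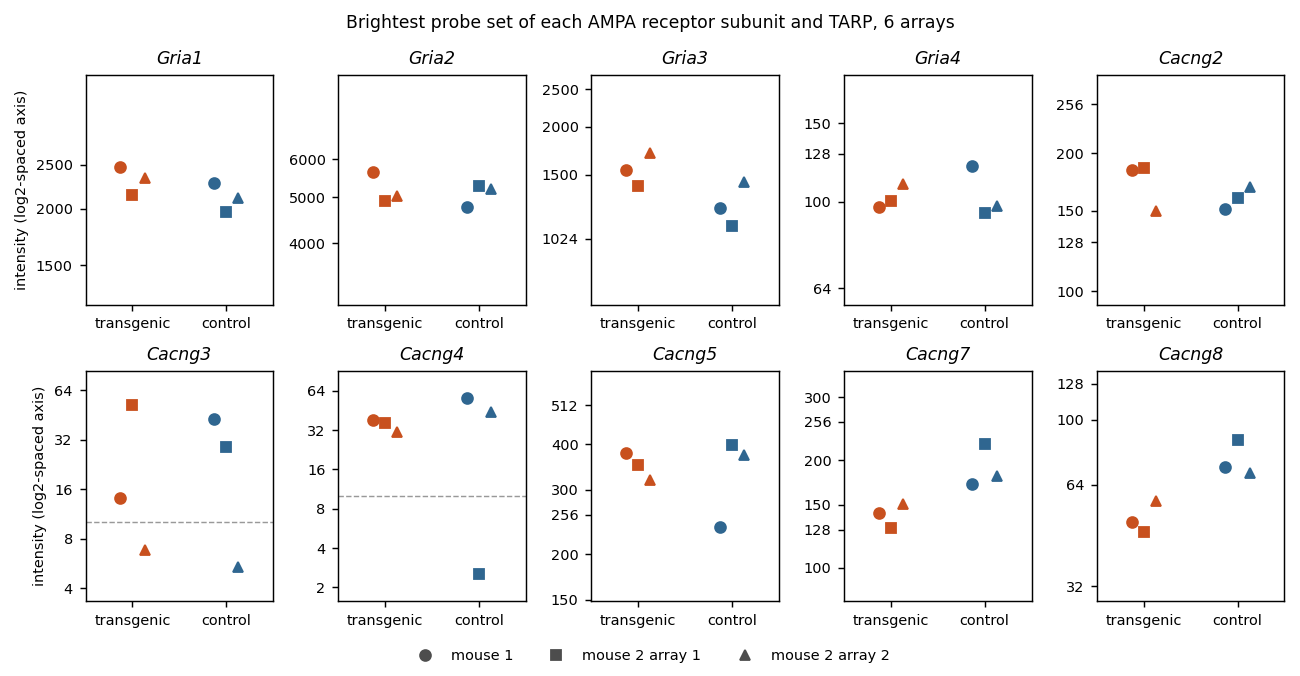
Intensity of the brightest probe set of each member on the 6 arrays, with transgenic arrays left of control arrays on a log2-spaced axis that differs between panels. The dashed line is the floor of 10.1; the groups are apart for Cacng7 and Cacng8, and overlap for the other 8 genes.

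The receptor subunits were read first. Gria1 encodes GluA1, the subunit most tied to activity-dependent insertion at synapses, and lies at chr11:57011571-57330244 (GRCm38.p6, as for all positions here). Its brightest probe set read 2469, 2142 and 2335 on the transgenic arrays (mouse 1, mouse 2 array 1, mouse 2 array 2, an order kept throughout), against 2281, 1965 and 2114 on the control arrays. The groups overlap, and in both the array of mouse 1 is the top value and array 1 of mouse 2 the lowest. The mean log2 intensity was 11.20 ± 0.10 in transgenic and 11.07 ± 0.11 in control mice (SD, n = 2), a difference of 0.12 (SE 0.17, 95% interval -0.31 to 0.56). The other Gria1 probe set read 1775, 1253 and 1510 on the transgenic arrays, against 1312, 1315 and 1533 on the control arrays, a difference of 0.20 that was 0.011 without transgenic mouse 1.

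Gria2, at chr3:80681450-80804227, has 3 probe sets, all above the floor on every array. The brightest read 5629, 4910 and 5033 on the transgenic arrays, against 4772, 5277 and 5203 on the control arrays. The groups overlap, with the array of transgenic mouse 1 above every control array, and the difference was 0.08 (SE 0.17, 95% interval -0.36 to 0.52). The second in brightness read 2736, 2186 and 2577 on the transgenic arrays, against 2676, 2855 and 2606 on the control arrays, a difference of -0.08. The third read 423, 327 and 318 on the transgenic arrays, against 203, 418 and 405 on the control arrays. Its difference of 0.35 turns on the 1 low control array, that of mouse 1, and without that mouse it was -0.16. Gria2 thus has probe sets on either side of 0.

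Gria3, on the X chromosome at chrX:41400819-41678601, encodes GluA3, which pairs mostly with GluA2. Its brightest probe set read 1542, 1403 and 1706 on the transgenic arrays, against 1230, 1108 and 1440 on the control arrays. The groups overlap by 1 array on each side, the lowest transgenic and the highest control array. The difference of 0.31 (SE 0.15, 95% interval -0.09 to 0.70) was the largest among the brightest probe sets of the subunits and corresponds to a 1.24-fold ratio. Means of the mice hardly differed within a group, with an SD of 0.0034 in transgenic and 0.027 in control mice, but the arrays of a mouse did: array 1 of mouse 2 minus array 2 was -0.28 in the transgenic and -0.38 in the control mouse. The second Gria3 probe set, with 413, 534 and 537 on the transgenic arrays against 529, 441 and 582 on the control arrays, gave -0.14. The mean of both probe sets differed by 0.09.

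Gria4, at chr9:4417893-4796234, encodes GluA4, a subunit of fast channels that is best known from interneurons. Its brightest probe set read 97.1, 100.4 and 109 on the transgenic arrays, against 120.4, 94.1 and 97.7 on the control arrays. The difference was -0.09 (SE 0.19, 95% interval -0.58 to 0.40), and the highest value came from control mouse 1, on whose array the mean log2 level of the 7 interneuron markers was also the highest, 0.61 above their mean over the 6 arrays. Of these 7 markers Gad1, Sst and Pvalb were each highest on another array. Pvalb read 159 on control mouse 1 and 190 on transgenic mouse 2 array 1. Without control mouse 1 the Gria4 difference was 0.07. What interneuron RNA adds to the Gria4 signal was not tested. Its other 2 probe sets did not pass the filter. They read 15.3 to 30.0 and 10.3 to 28.2 on the transgenic arrays, against 23.0 to 38.1 and 16.3 to 23.1 on the control arrays, with differences of -0.37 and -0.42.

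Cacng7 and Cacng8, a type II and a type I TARP, were the members whose transgenic arrays all lay on one side of the control arrays. The brightest probe set of Cacng8 read 49.7, 46.2 and 57.5 on the transgenic arrays, against 72.5, 87.4 and 69.3 on the control arrays. Its mean log2 intensity was 5.66 ± 0.04 in transgenic and 6.23 ± 0.07 in control mice (SD, n = 2). The difference of -0.57 (SE 0.15, 95% interval -0.98 to -0.16) corresponds to 0.674 of the control level, with adjusted p = 0.999 over all genes tested (limma), and adjusted p = 0.555 in the fit over all 45037 probe sets, of which 0 (0%) were called. The interval is that of a single gene, with no allowance for the number of genes tested. It also depends on the variance model. With a variance trend and robust variance the difference of -0.57 had an SE of 0.30, and no interval was computed for that fit.

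Cacng7 read 142, 129 and 151 on the transgenic arrays, against 171, 222 and 180.3 on the control arrays. Its mean was 7.14 ± 0.02 in transgenic and 7.53 ± 0.16 in control mice (SD, n = 2), a difference of -0.39 (SE 0.17, 95% interval -0.83 to 0.04, adjusted p = 0.999 with limma). Of the 9 members measured, 2 had all transgenic arrays below all control arrays and 0 had them all above. Among all genes tested 4.22% lay all below and 3.86% all above, so such a separation is common without any gene being called. For both genes the difference was larger than that between arrays of a mouse and between mice of a group, which held for 5.82% of all genes tested. This largely repeats the separation of the arrays by which the 2 genes were singled out, so it is no separate support.

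Most of the oligodendrocyte, astrocyte, microglia and interneuron markers measured, like Cacng7 and Cacng8, had lower means in the transgenic mice. Cacng7 and Cacng8 were highest on control mouse 2 array 1 and lowest on transgenic mouse 2 array 1, while oligodendrocyte, astrocyte, microglia and interneuron markers were highest on control mouse 1 in mean log2 level (0.77, 0.54, 0.35 and 0.61 above their means). The summed microglia markers were highest on control mouse 2 array 1 (3636, with 3481 on control mouse 1). The 2 vascular markers measured of 4 listed were lowest on transgenic mouse 2 array 1, at -0.45 from their mean, and highest on control mouse 1. The 4 pyramidal cell markers measured of 6 were highest on control mouse 2 array 1, at 0.16, as was Cspg4, the 1 marker of oligodendrocyte precursors measured of 2, at 0.48. In mean log2 level the 6 granule cell markers were at -0.030, -0.072 and -0.074 on the transgenic and 0.031, 0.082 and 0.063 on the control arrays. This list was thus also highest on control mouse 2 array 1 and lower on every transgenic array, though 2 of its 6 genes had higher means. Without control mouse 1 the difference was -0.62 for Cacng8 and -0.51 for Cacng7. Within the re-LCM arrays, 2 transgenic and 1 control, it was -0.60 for Cacng8 and -0.34 for Cacng7, and within the arrays without the tag, 1 transgenic and 2 control, -0.44 for Cacng8 and -0.41 for Cacng7. With all transgenic arrays below all control arrays, leaving out arrays could not change the sign for either gene. The part of other cell types in the result was not tested.

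**Figure D2:**
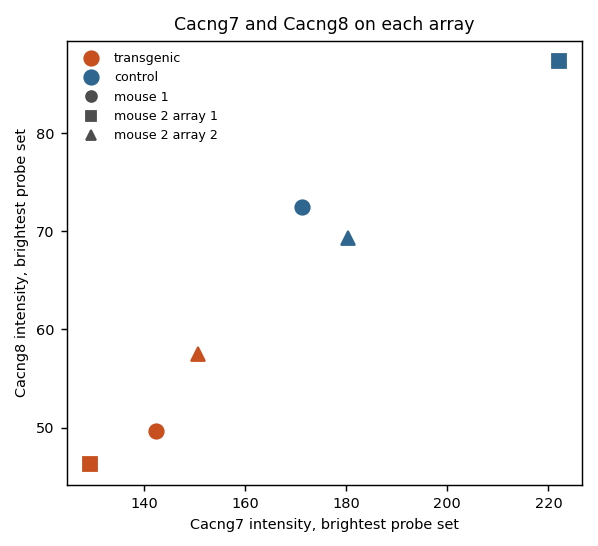
Intensity of the brightest probe sets of Cacng7 (horizontal axis) and Cacng8 (vertical axis) on each array, both on linear axes that do not start at 0. The 3 transgenic arrays sit at 129 to 151 for Cacng7 and 46.2 to 57.5 for Cacng8, the 3 control arrays at 171 to 222 and 69.3 to 87.4.

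Both genes also varied alike among the arrays of a group, as the plot of Cacng7 against Cacng8 shows. Over the 6 arrays their Pearson r was 0.98, and 0.91 once the mean of each group was taken out of the log2 values. It was the highest r of the 36 pairs that the 9 members form (median 0.05). The next was 0.75, for Gria2 and Cacng5, and the lowest was -0.98, for Gria4 and Cacng5. These values describe 6 arrays that come from 4 mice and share their scaling, and no test was made of them. Of the 14677 genes other than Cacng8, 5 were at least as close to it as Cacng7 was, a count that can include Cacng7 itself. For Gria4 and Cacng5, control mouse 1 had the highest Gria4 and the lowest Cacng5 value of the 6 arrays.

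The genes for Cacng7, at chr7:3332027-3368221, and Cacng8, at chr7:3394042-3416266, are neighbours, with 25.8 kb between them. A window of 300 bases at an annotated start of each, most of it before the start, is shown since these neighbours were the members with groups apart and varied alike over the arrays. They are RefSeq windows of GRCm38.p6 on the plus strand, chr7:3332575-3332874 for Cacng7 and chr7:3393792-3394091 for Cacng8. Capitals mark matches to the GC box (GGGCGG on either strand, so CCGCCC as printed), the element read by Sp family factors.

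Cacng7: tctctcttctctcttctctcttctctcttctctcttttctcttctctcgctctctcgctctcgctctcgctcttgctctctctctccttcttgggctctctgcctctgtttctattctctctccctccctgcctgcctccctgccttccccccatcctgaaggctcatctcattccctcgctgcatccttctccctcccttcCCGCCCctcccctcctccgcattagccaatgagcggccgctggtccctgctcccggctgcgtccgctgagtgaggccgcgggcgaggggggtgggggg

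Cacng8: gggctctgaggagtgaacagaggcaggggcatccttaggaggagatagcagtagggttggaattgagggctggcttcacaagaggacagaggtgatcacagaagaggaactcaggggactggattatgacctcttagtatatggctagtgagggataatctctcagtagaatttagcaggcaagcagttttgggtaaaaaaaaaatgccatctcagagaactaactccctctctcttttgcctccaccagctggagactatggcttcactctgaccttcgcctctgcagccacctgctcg

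The Cacng7 window holds 1 GC box, 0 matches to TATAAA on either strand and 0 to the E-box CANNTG, with 62% G and C. The Cacng8 window holds 0, 0 and 2 of these in the same order, with 50% G and C. Among all 32851 RefSeq promoter windows of that length, 35.7% have a GC box, 13.6% a TATAAA and 72.3% an E-box, and the median G and C content is 52.7%. The windows of the neighbours thus did not share a match to any of the 3 motifs. A match describes letters only, and the start used for the Cacng7 window lies inside the annotated gene. Whether either window works as a promoter was not tested.

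The dimmer probe sets of both genes gave no usable comparison. That of Cacng8 was at or under the floor on 2 of 3 transgenic and 2 of 3 control arrays, with 11.1 on transgenic mouse 1 and 36.9 on control mouse 1 as the values above it. That of Cacng7 was at or under the floor on 2 transgenic arrays and 1 control array, with values up to 19.1 on the transgenic and 32.9 on the control arrays. The Cacng7 and Cacng8 results therefore each rest on 1 probe set.

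Cacng5, at chr11:107874604-107915055, encodes the other type II TARP. Its brightest probe set read 379, 350.3 and 319 on the transgenic arrays, against 238, 397 and 373 on the control arrays. Apart from the low array of control mouse 1, the control values lie at the upper end of the transgenic range or just above it. The difference of 0.23 (SE 0.28, 95% interval -0.49 to 0.96) was -0.11 without control mouse 1 and 0.58 without control mouse 2. The second probe set was at or under the floor on 1 transgenic array and 2 control arrays.

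Cacng2, at chr15:77991919-78120220, encodes stargazin, the founding TARP, which is needed for AMPA currents of cerebellar granule cells. Its brightest probe set read 184, 186 and 149.8 on the transgenic arrays, against 151, 159.9 and 169 on the control arrays, a difference of 0.15 (SE 0.16, 95% interval -0.27 to 0.58). The groups overlap, with the lowest transgenic array under every control array. Another, which did not pass the filter, read 36.0, 29.0 and 55.8 on the transgenic arrays, against 11.6, 13.0 and 37.1 on the control arrays. This is the largest difference of any member probe set, at 1.25 (adjusted p = 0.793, limma over all probe sets), but it was 0.18 with the floor at the median intensity, and the groups overlap. The remaining one read 41.4, 12.1 and a value under the floor on the transgenic arrays, against 29.3, 14.7 and 29.5 on the control arrays, a difference of -0.21.

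Cacng4 and Cacng3 were near the floor. Cacng4, at chr11:107732357-107794706, is 79.9 kb from Cacng5 and is known for its expression early in development and in glia. Its brighter probe set read 38.2, 36.1 and 31.1 on the transgenic arrays, against 56.6, a value under the floor and 43.6 on the control arrays. In control mouse 2 alone array 1 minus array 2 was -2.12 on the log2 scale, so the difference of 0.06 (SE 0.49, 95% interval -1.24 to 1.35) carries little. Its other probe set was at or under the floor on all 6 arrays. Cacng3, at chr7:122671744-122769393, a TARP of the cerebral cortex, has 1 probe set. It read 14.1, 52.5 and a value under the floor on the transgenic arrays, against 43.1, 29.0 and a value under the floor on the control arrays, a difference of -0.59 that did not pass (limma over all probe sets, adjusted p = 0.895).

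The probe sets of a gene differed in how often they were at the floor, which bears on how far a TARP can be read here. Of the 12 member probe sets built on expressed sequence tags, 9 passed the filter and 2 had an array at or under the floor. Of the 10 built on a RefSeq mRNA or another cDNA, 4 passed and 5 had such an array. In 8 of the 9 members measured, all but Gria1, the brightest probe set was built on a tag. On these arrays the ratio of the 3' to the 5' control probe set of Actb was 14.8 to 27.8 on the transgenic and 17.4 to 24.2 on the control arrays. It went with the tag: 14.8 to 19.4 on the re-LCM arrays against 22.7 to 27.8 on those without it. The same ratio of Gapdh was 6.46 to 7.06 against 7.87 to 8.63. The tag is uneven between the groups, and what this does to the differences was not tested. Where each probe set lies along its transcript was not examined.

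**Figure D3:**
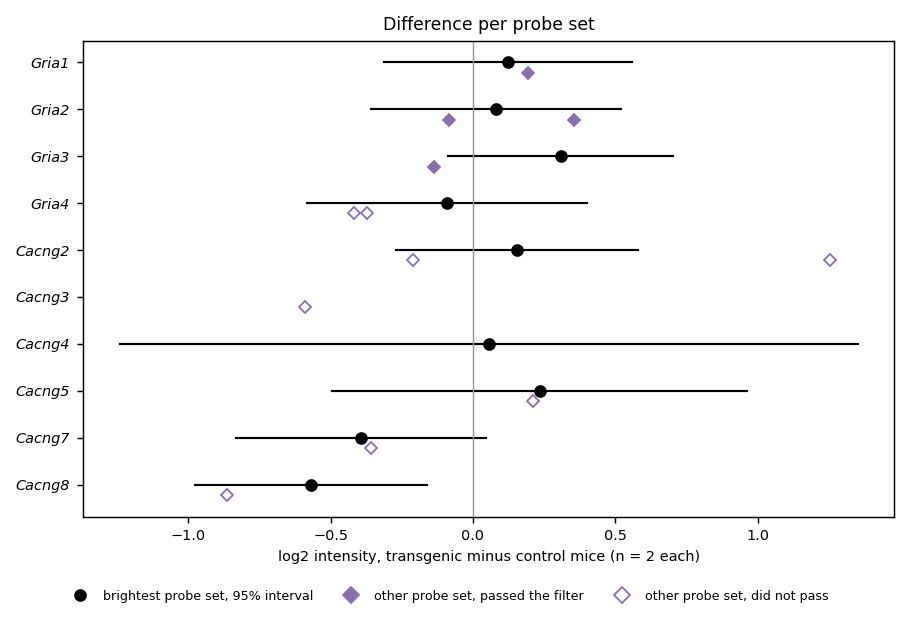
Difference in log2 intensity, transgenic minus control mice, for each probe set of the 10 members, leaving out the Cacng4 probe set at or under the floor on all arrays. Black points with bars are the brightest probe sets with their 95% interval, and diamonds are the others, with that of Cacng3 its only one; the bar of Cacng8 alone stays off 0, and the Gria2, Gria3 and Cacng2 probe sets lie on both sides of 0.

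The plot of differences shows the probe sets of each member together. Genes that act with AMPA receptors gave no calls either, and 0 of the listed genes that passed the filter was under 0.05 unadjusted. Of 19 auxiliary and biogenesis genes, 16 were measured, 10 with a higher and 6 with a lower mean in the transgenic mice, and 0 passed (median 0.0020). Olfm3, of the noelins that bind AMPA receptors from outside, read 198, 201 and 181 on the transgenic arrays, against 159, 176 and 152 on the control arrays, a difference of 0.27. It was the 1 gene of the 16 with all transgenic arrays above, and 0 had them all below. Among all genes tested 3.86% lay all above and 4.22% all below. Syndig1, which promotes AMPA receptor synapses, gave -0.26, the cornichon Cnih3 0.26 and the auxiliary subunit Shisa7 -0.22, each with overlap. The lowest of the list was Gsg1l, another auxiliary subunit, at -0.43, named after its values were seen. Cnih2, the cornichon that assembles with Cacng8 and GluA1 in the hippocampus, differed by 0.00079 (95% interval -0.39 to 0.40), with 161, 178 and 154 on the transgenic arrays against 164, 166 and 159 on the control arrays.

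Of 16 trafficking and anchoring genes, 14 were measured, 11 with a higher and 3 with a lower mean, and 0 passed (median 0.09). Adarb1, the enzyme that edits the GluA2 pore codon, read 88.4, 103 and 89.8 on the transgenic arrays, against 57.4, 90.8 and 73.3 on the control arrays. The groups overlap, with 2 transgenic arrays under the highest control array, and the difference was 0.43 (SE 0.23, 95% interval -0.16 to 1.03). Akap5, which anchors kinases and phosphatases at the receptor, gave -0.32 with all transgenic arrays below the control arrays. The scaffold Dlg1, named after its values were seen, was also all below, with 940.2, 936 and 954 on the transgenic arrays against 1135, 956 and 965 on the control arrays, a difference of -0.15. These 2 of 14 genes stand beside 4.22% of all genes tested. Camk2b gave 0.39, and the pentraxin Nptx1, which clusters AMPA receptors, 0.23. The scaffold Dlg4 (0.07) and Pick1 (0.12), which binds the tail of GluA2, were both within 1 standard error of 0. The gamma subunits outside the TARPs, Cacng1 and Cacng6, known from muscle, did not pass the filter. Cacng1 was at or under the floor on 5 of 6 arrays. Cacng6 read 22.0, 22.9 and 26.1 on the transgenic arrays at its brighter probe set, against 20.9, 33.3 and 12.0 on the control arrays, and the dimmer one was at or under the floor on 5 of 6 arrays.

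**Figure D4:**
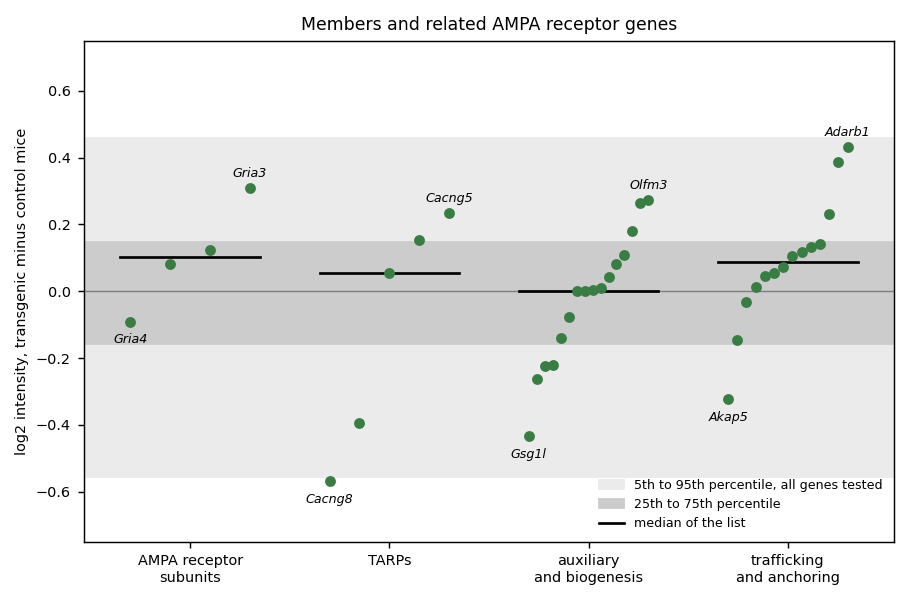
Difference in log2 intensity, transgenic minus control mice, for the measured members and for 2 lists of related genes, 1 point per gene. Grey bands give the 5th to 95th (-0.56 to 0.46) and 25th to 75th (-0.16 to 0.15) percentile of all 14678 genes tested; Cacng8 lies just below the wider band, and the other genes shown lie inside it.

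**Figure D5:**
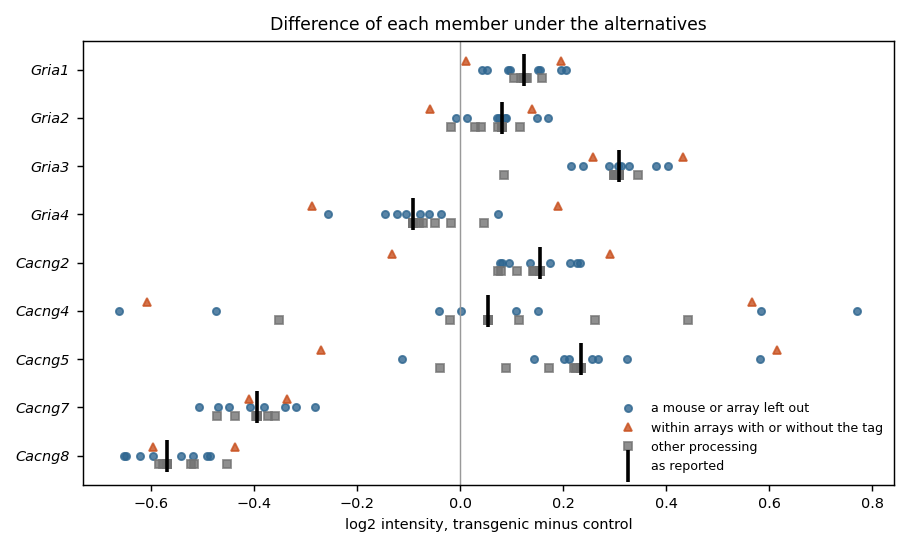
Difference in log2 intensity, transgenic minus control mice, of each measured member under every alternative setting, with the reported value as a black bar. Blue circles leave out a mouse or an array, orange triangles are within the arrays with or without the re-LCM tag, and grey squares change other processing; Gria1, Gria3, Cacng7 and Cacng8 stay on one side of 0, and Cacng4 spreads from -0.66 to 0.77.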

How the data were processed

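Intensities of 45101 probe sets on 6 arrays were used as deposited by the authors, on a linear scale. Their 2% trimmed mean was 150.001 on each array. How probes were summarised, and with which program, is not given in the labels. The 64 control probe sets were dropped, and values under the pooled 25th percentile were raised to it before taking log2.

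For each gene the brightest probe set was kept where its mean exceeded the median of all probe sets (14678 genes). Those without a single symbol stood each for itself. Arrays of 1 mouse were averaged on the log2 scale. The groups were set against each other with limma 3.58.1 (lmFit, eBayes; R 4.3.3), and genes with a Benjamini-Hochberg adjusted p under 0.05 were to be called. The code was tested on simulated data. Member probe sets were also read from a fit of all 45037 probe sets without the filter. Many of those are at the floor with no variance, which changes its standard errors, so none of these errors is printed. The adjusted p-values given from that fit rest on the same standard errors and share this limit.

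Apart from cell type markers, the genes named are all members, the 4 genes of smallest p in each list of related genes, and Adarb1, Cnih2, Dlg4, Pick1, Cacng1 and Cacng6. Dlg1, Gsg1l and Vwc2l were named after their values were seen. Members and lists were chosen with earlier results of these data known. P-values and intervals rest on the spread between 4 mice (2 residual degrees of freedom), which limma draws toward a variance shared by all genes tested. That shared variance counts as 2.70 degrees of freedom. The number of arrays limits the precision. Results were recomputed under 18 other settings, and the 2 comparisons within the tag were added after seeing the data.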

Additional observations from a re-analysis of the deposited data

How the results depend on the processing

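Cacng8, Cacng7, Gria1 and Gria3 kept the sign of their difference under the 18 planned and 2 added alternatives, and no member was called in any. For Cacng8 and Cacng7, whose groups were apart, leaving out a mouse or an array or staying within the tag could not change the sign. Cacng8 ran from -0.65 to -0.44 (limma adjusted p from 0.198 to 1) and Cacng7 from -0.51 to -0.28 (0.237 to 1); the lowest p of each came with the mouse as a random effect, whose estimated correlation was -0.54. Gria3 ran from 0.09, for the mean of its probe sets, to 0.43. Gria1 ran from 0.012, within the re-LCM arrays, to 0.21, and its second probe set from 0.011, without transgenic mouse 1, to 0.38. Over all genes 0 were called in each alternative but 1: with a variance trend and robust variance 1 gene was called, which is no member. With the mouse number as a replicate block 0 genes were called, and no call of a member changed (Cacng8 -0.57, adjusted p = 0.959). Deviations of mice with the same number correlated at 0.03 across genes, so the numbers were not taken as pairs.

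Other members changed sign in places, and the cause was not tested. With the mouse as a random effect Gria2 was at -0.017, Gria4 at 0.046, Cacng5 at -0.039, the third Gria2 probe set at -0.086, a dim Gria4 probe set at 0.051 and Cacng3 at 0.046. With the floor at the median intensity Cacng4 was at -0.35 and a dim Cacng2 probe set at 0.13, while a dim Gria4, Cacng5 and Cacng7 probe set were each at the floor on all arrays and gave no value. With the tag as a term Cacng4 was at -0.020. Within the re-LCM arrays Cacng4 was at -0.61 and the dim Cacng7 probe set at 0.46. Within the arrays without the tag Gria2 was at -0.058, Gria4 at 0.19, Cacng2 at -0.13 and Cacng5 at -0.27, the third Gria2 probe set at -0.37, the second of Gria3 at 0.085 and the second of Cacng5 at -0.073. With an offset of 16 in place of the floor Cacng4 did not pass the filter and gave no value.

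Leaving out a mouse or an array gave -0.0085 to 0.17 for Gria2, -0.26 to 0.073 for Gria4, -0.66 to 0.77 for Cacng4 and -0.11 to 0.58 for Cacng5. For the other probe sets it gave -0.19 to 0.019 and -0.16 to 0.86 (Gria2), -0.32 to 0.049 (Gria3), -0.77 to 0.029 and -0.94 to 0.11 (Gria4), -1.17 to 0.75 (Cacng2), -1.26 to 0.077 (Cacng3), -0.25 to 0.67 (Cacng5), -0.95 to 0.23 (Cacng7) and -1.80 to 0.073 (Cacng8). With 1 mouse left out, the remaining mouse of its group is assumed to vary like the others. Signal near the floor limits Cacng3, Cacng4 and the 9 probe sets below the filter.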

Other observations

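Vwc2l, which encodes a secreted protein found with AMPA receptors and was on the list of auxiliary genes, did not pass the filter and was singled out after its values were seen. It was under the floor of 10.1 on all 3 transgenic arrays, against 15.8, 15.7 and 11.3 on the control arrays. Values that close to the floor allow no fold, and limma over all probe sets gave adjusted p = 0.666.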
